A study of Capra hircus with 90 samples.

Results

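PRPH, GRP and NPFF are 3 of the 25144 goat genes counted in punches of frozen brainstem, and they were described here over 3 sites and 5 exposures to inhaled CO2. They were chosen because the authors' deposited table lists all 3 as lower in the nucleus of the solitary tract (NTS) after 24 h of CO2. That table gives log2 changes, CO2 over room air, of -3.98 for PRPH (adjusted p = 0.03), -3.48 for GRP and -4.13 for NPFF (adjusted p = 0.00974 each). It lists 180 of 17730 genes, or 1.02%, and since it chose the members nothing is read from their presence in it. The symbols were linked to the identifiers ENSCHIG00000011830, ENSCHIG00000011669 and ENSCHIG00000020253 of PRPH, GRP and NPFF by equal mean abundance. All 3 passed the filter on low counts in every comparison below.

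The animals were outbred female goats of mixed dairy breeds, at least 2 years old, with 6 goats in each exposure group. The exposures were 3 h of 6% CO2 and 24 h of 6% CO2, both set against 24 h of room air, and 7 d of 6% CO2, set against 7 d of room air. RNA of the first 3 groups was extracted and sequenced as batch 1 and that of the 7 d groups as batch 2, so exposure time and batch cannot be told apart between them. Punches were taken at 3 levels rostral to the obex, 0 to 2 mm for the NTS, 2 to 4 mm for the ventral respiratory column (VRC) and 8 to 10 mm for the retrotrapezoid nucleus (RTN), which gives 15 groups of 6 libraries. A punch of about 1.8 mm holds many cell types, and in such bulk tissue fewer cells of a type and less RNA per cell cannot be told apart. Total counts per library lay between 5456538 and 36756816. Levels are given in CPM, the read count scaled to the library's depth with trimmed-mean (TMM) factors. CPM is not corrected for transcript length, so levels are compared within a gene only.

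PRPH encodes peripherin, an intermediate filament protein known from neurons whose axons leave the brain and spinal cord, among them cranial motor neurons and sensory ganglion cells. In mammals such motor neurons lie near all 3 punched sites, in the vagal motor nucleus beside the NTS, the nucleus ambiguus within the VRC and the facial nucleus beside the RTN. GRP encodes the precursor of gastrin-releasing peptide, a bombesin-like neuropeptide that acts on the receptor GRPR. In rodents GRP and its receptor take part in itch relay in the spinal cord and in sighing through neurons around the facial nucleus. NPFF encodes the precursor of neuropeptide FF, an RF-amide peptide that acts on the receptors NPFFR1 and NPFFR2 and is known in rodents from the NTS and the spinal dorsal horn.

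The lists of related genes could be read only in part, because symbols are linked for 238 genes that the authors selected on these libraries. Of 29 neuropeptide and receptor genes, GRP and NPFF alone carry a linked symbol, of 11 filament genes PRPH alone, and of 10 cholinergic and motor neuron genes none. Of 10 genes of sensory and peripheral neurons, PRPH alone is linked. Markers that define the NTS, VRC and RTN could thus not be read, and the sites are taken from the labels. In the RefSeq annotation of the assembly ARS1.2 no other gene overlaps PRPH, GRP or NPFF, and NPFF lies between ATF7 and TARBP2.

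PRPH was highest in the RTN, where its 30 libraries ranged from 25.5 to 950 CPM with a median of 186 CPM. The 30 NTS libraries had a lower median, 4.62 CPM, but the widest range, 1.91 to 1093 CPM. In the VRC PRPH ranged from 2.01 to 72.0 CPM with a median of 6.77 CPM. More than 30 CPM was reached by 10 of 30 NTS libraries, 2 of 30 VRC libraries and 27 of 30 RTN libraries. No NTS library lay between 10 and 30 CPM, so the NTS libraries formed a low set of 20 and a high set of 10.

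GRP was likewise highest in the RTN, at 5.42 to 28.9 CPM with a median of 10.2 CPM. In the NTS it ranged from 0.152 to 49.9 CPM with a median of 1.86 CPM, and in the VRC from 0.458 to 2.80 CPM with a median of 1.28 CPM. Every RTN library held more than 5 CPM, as did 10 of 30 NTS libraries and 0 of 30 VRC libraries. NPFF was low nearly everywhere, with medians of 0.670 CPM in the NTS, 0.515 CPM in the VRC and 0.889 CPM in the RTN. Its highest values were 92.2 CPM in the NTS, 1.33 CPM in the VRC and 10.96 CPM in the RTN, and 5 CPM was passed in 3 NTS libraries and 1 RTN library. The lowest counts behind these values were 29 reads for PRPH and 2 each for GRP and NPFF, so the low end of NPFF and GRP rests on few reads.

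**Figure D1:**
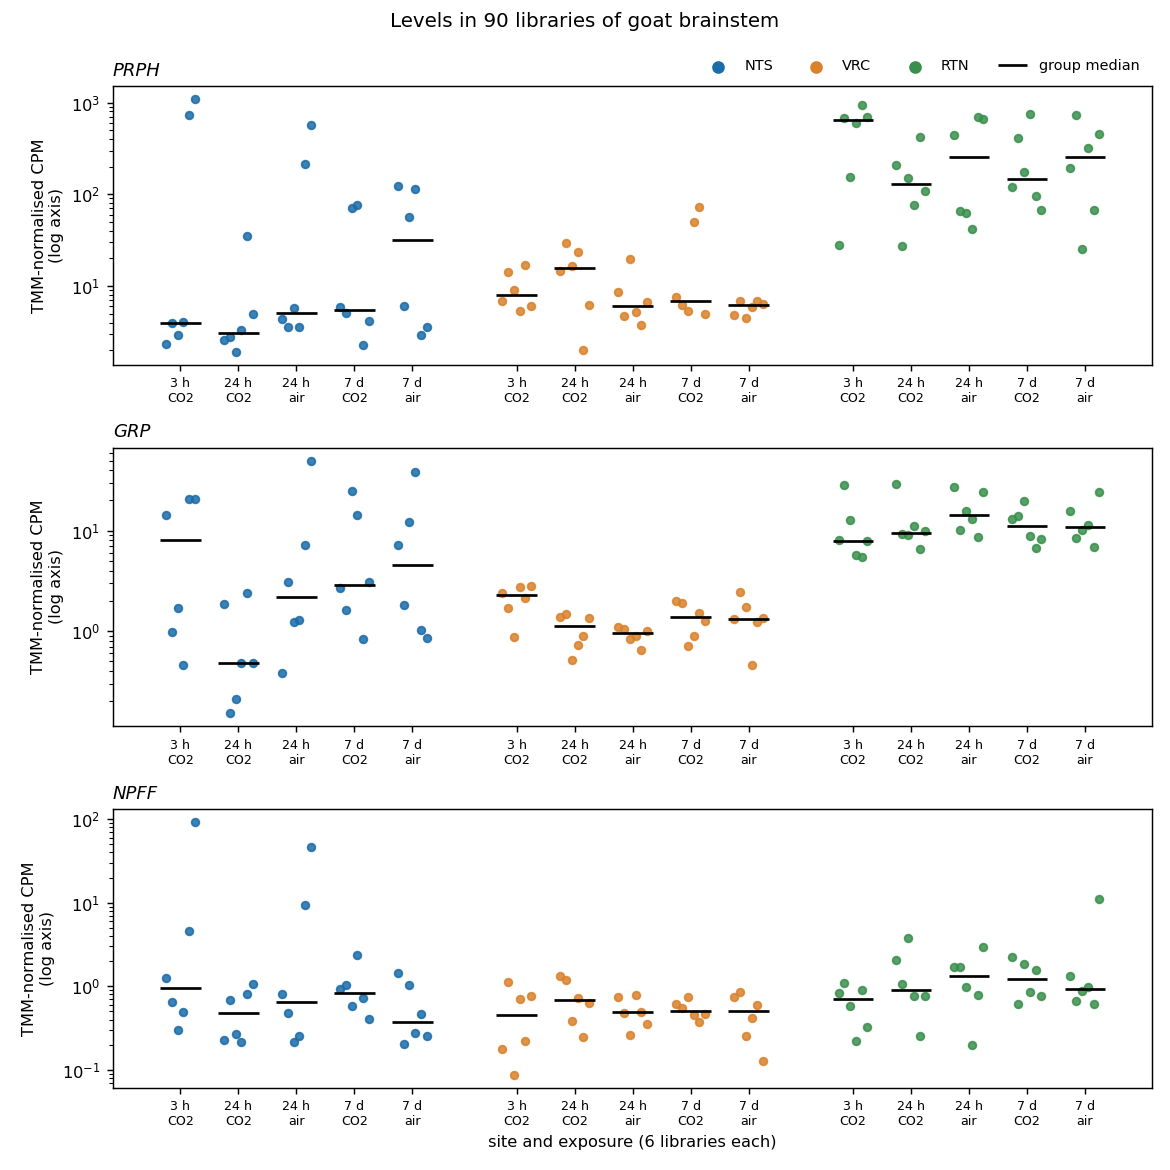
TMM-normalised CPM on a log axis for PRPH, GRP and NPFF, with 1 point per library and a bar at the median of each group of 6, by site (NTS, VRC, RTN) and exposure. PRPH and GRP are high in all RTN groups, and a minority of the 30 NTS libraries lies far above the rest, up to 1093 CPM for PRPH.

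Ordered by group median, PRPH ran from 642 CPM in the RTN after 3 h of CO2 through the other 4 RTN groups, the lowest of them at 130 CPM after 24 h of CO2. The NTS of the 7 d room-air goats followed at 31.6 CPM, then the 5 VRC groups at 15.6 to 6.00 CPM, and last the other 4 NTS groups, down to 3.04 CPM after 24 h of CO2. The median of 31.6 CPM lies between libraries at 6.03 and 57.2 CPM, with no library near it. GRP ran from 14.3 CPM in the RTN of the 24 h room-air goats to 0.483 CPM in the NTS after 24 h of CO2. After 3 h of CO2 the median of GRP was 8.07 CPM in the NTS and 7.94 CPM in the RTN. NPFF ran from 1.34 CPM in the RTN of the 24 h room-air goats to 0.372 CPM in the NTS of the 7 d room-air goats. For each gene, all 14 pairs of neighbours in this order had overlapping ranges, so no step between neighbours was larger than the spread of the libraries.

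The NTS comparison of 24 h of CO2 with room air chose the members, and its values are given as a description with no test. After 24 h of CO2, PRPH stood at 2.57, 2.81, 1.91, 3.28, 35.3 and 4.91 CPM in libraries 1 to 6, against 4.32, 3.62, 5.82, 3.59, 215 and 571 CPM in room air. Libraries 5 and 6 of room air were far above the other 4, library 5 was the high one after CO2, and the groups overlapped. GRP stood at 1.89, 0.152, 0.213, 0.487, 2.39 and 0.479 CPM after 24 h of CO2, against 0.385, 3.09, 1.22, 1.31, 7.13 and 49.9 CPM in room air. Again library 6 of room air was the highest and library 5 the next, and the low libraries of both groups overlapped. NPFF stood at 0.229, 0.683, 0.266, 0.217, 0.811 and 1.08 CPM after 24 h of CO2, against 0.814, 0.485, 0.216, 0.254, 9.38 and 46.8 CPM in room air. Outside room-air libraries 5 and 6, the NPFF values of both groups covered nearly the same span.

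Library 6 held 71.1% of the summed PRPH CPM of the NTS room-air group, 79.2% of GRP and 80.8% of NPFF. With library 5 the shares were 97.8%, 90.5% and 97.0%. The medians of the groups were 3.04 CPM after 24 h of CO2 and 5.07 CPM in room air for PRPH. They were 0.483 and 2.20 CPM for GRP, and 0.474 and 0.649 CPM for NPFF. The log2 difference, 24 h of CO2 minus room air, was -3.94 for PRPH, -3.40 for GRP and -4.09 for NPFF with all libraries. Without room-air library 6 it was -2.40, -1.49 and -2.12. Without 5 libraries set apart below it was -0.44, -1.23 and 0.17, so that of NPFF no longer pointed down. The 5 are also the first-batch NTS libraries with more than 30 CPM of PRPH, among them room-air libraries 5 and 6. Leaving them out takes away the highest values behind the difference itself, so this is a description.

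After 3 h of CO2, which shares its room-air libraries with the choice of members and is also given with no test, libraries 5 and 6 were again the high ones. PRPH stood at 2.34, 3.98, 2.90, 4.00, 739 and 1093 CPM in libraries 1 to 6 after 3 h of CO2, and the 2 highest lay above every room-air library. GRP stood at 14.4, 0.985, 1.70, 0.458, 20.5 and 20.5 CPM, where library 1 was high for GRP while it was low for PRPH. NPFF stood at 1.24, 0.657, 0.300, 0.496, 4.53 and 92.2 CPM, with library 6 far above the rest. The log2 difference, 3 h of CO2 minus room air, was 1.20 for PRPH, -0.02 for GRP and 0.85 for NPFF. Leaving out 1 library at a time moved these differences to between 0.18 and 2.74 for PRPH, -0.36 and 1.89 for GRP, and -2.59 and 2.82 for NPFF. The highest value came without room-air library 6 for all 3 genes, and the lowest without library 6 of the 3 h group for PRPH and NPFF and without library 5 for GRP. Without the libraries set apart below the differences at 3 h were -0.35 for PRPH, 1.60 for GRP and 0.74 for NPFF. The libraries left out include numbers 5 and 6 of both groups.

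**Figure D2:**
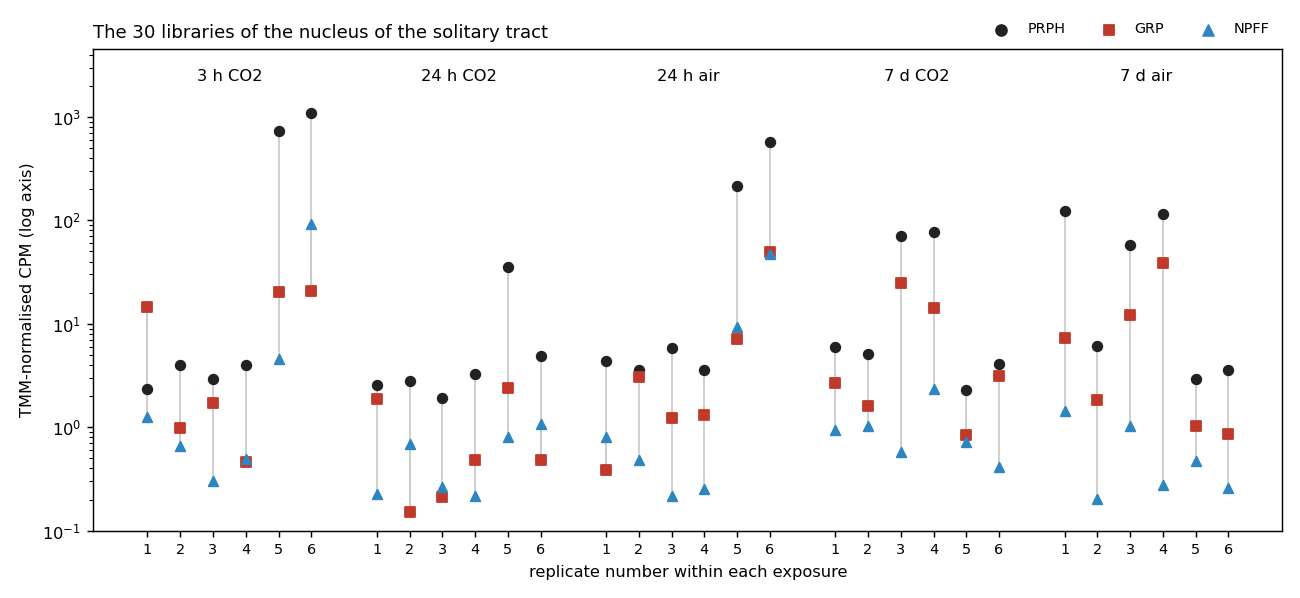
TMM-normalised CPM on a log axis of PRPH, GRP and NPFF in each of the 30 NTS libraries, by exposure and replicate number, with a grey line joining the 3 genes of 1 library. The high PRPH values of libraries 5 and 6 after 3 h of CO2 and in 24 h of room air come with high GRP and NPFF, and those of libraries 3 and 4 after 7 d of CO2 and 1, 3 and 4 in 7 d of room air come with high GRP. Library 5 after 24 h of CO2, at 35.3 CPM of PRPH, holds only 2.39 CPM of GRP and 0.811 CPM of NPFF.

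The 5 NTS libraries of the first batch with more than 30 CPM of PRPH were also the 5 that lay above 0 on the first principal component of 14269 other genes, which held 36.3% of the variance of these 18 libraries. On it numbers 5 and 6 after 3 h of CO2 lay at 54.8 and 55.3. Number 5 after 24 h of CO2 lay at 10.5, and numbers 5 and 6 of room air lay at 38.1 and 31.2. The other 13 libraries lay between -26.3 and -6.78. Their PRPH ran from 1.91 to 5.82 CPM, against 35.3 to 1093 CPM in the 5.

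Marker levels were set beside this axis, with no test. The markers that could be read belong to genes that the authors selected on libraries that include these. Their gaps between the sets can follow in part from that choice and are a description. Those of neurons, myeloid cells, blood and endothelium, and TTR, had higher medians in the 5 libraries than in the other 13, with overlapping ranges. The medians were 58.2 against 47.6 CPM for endothelium and 3.65 against 1.81 CPM for TTR. Oligodendrocyte markers had a lower median, 38.0 against 52.4 CPM. In the 5 libraries oligodendrocyte markers and TTR lay within the range of the other 13. The linked neuronal marker GABRB2, 1 of 7 on its list, ran from 5.29 to 15.4 CPM in the 5 libraries and from 2.02 to 7.81 CPM in the other 13. The summed myeloid markers AIF1 and CD14, 2 of 4, ran from 68.0 to 117 CPM and from 35.9 to 69.0 CPM in the same sets. The 6 of 6 endothelial markers summed to 39.5 to 157 CPM in the 5 libraries and 30.1 to 101 CPM in the other 13, and the 2 of 3 blood markers to 12.3 to 25.3 CPM and 8.12 to 17.0 CPM. OLIG1 and OLIG2, 2 of 5 oligodendrocyte markers, summed to 37.0 to 47.0 CPM and 19.3 to 155 CPM, and the choroid plexus gene TTR, 1 of 2, ran from 1.58 to 18.7 CPM and from 0.400 to 156 CPM. No astrocyte marker was linked. The part of these cell types, or of the position of the punch, in the values of PRPH, GRP and NPFF was not tested.

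**Figure D3:**
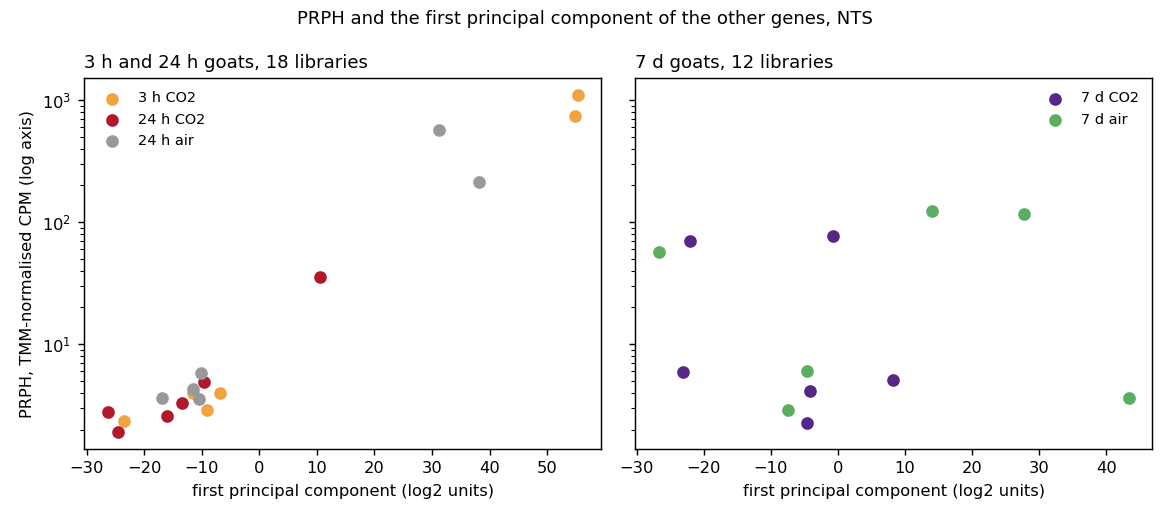
PRPH in CPM on a log axis against the first principal component of the other genes, with 1 point per NTS library, for the 18 libraries of the first batch and the 12 libraries of the 7 d goats. In the first batch the 5 libraries with a component above 0 hold 35.3 CPM of PRPH or more, and in the 7 d goats libraries of high and low PRPH lie on both sides of 0.

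The 7 d goats are not in the contrast that chose the members, though their libraries entered the fit over 90 libraries whose filter and dispersions lie behind it. Their NTS libraries fell into separate sets as well for PRPH. After 7 d of CO2, PRPH stood at 5.94, 5.10, 70.2, 76.9, 2.28 and 4.13 CPM in libraries 1 to 6, against 122, 6.03, 57.2, 115, 2.92 and 3.61 CPM in 7 d of room air. There were thus 2 high libraries after CO2 and 3 in room air, and the groups overlapped. GRP stood at 2.69, 1.62, 24.7, 14.3, 0.839 and 3.10 CPM after CO2, against 7.23, 1.83, 12.1, 38.3, 1.04 and 0.864 CPM in room air. NPFF stood at 0.934, 1.02, 0.573, 2.35, 0.719 and 0.409 CPM after CO2, against 1.44, 0.204, 1.04, 0.275, 0.469 and 0.256 CPM in room air, with no library apart in either group.

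In these 12 libraries the 5 highest for PRPH were also the 5 highest for GRP, with at least 7.23 CPM of GRP against at most 3.10 CPM in the other 7. With NPFF both PRPH and GRP shared 3 of their 5 highest libraries. In the 18 libraries of the first batch PRPH shared 4 of its 5 highest with GRP and 4 with NPFF, and GRP shared all 5 with NPFF, a likeness that bears on the libraries that chose the members. Because the 12 libraries of the 7 d goats fall into separate sets for PRPH, no correlation over them is given, and the relation within a set could not be tested on libraries split by PRPH itself.

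**Figure D4:**
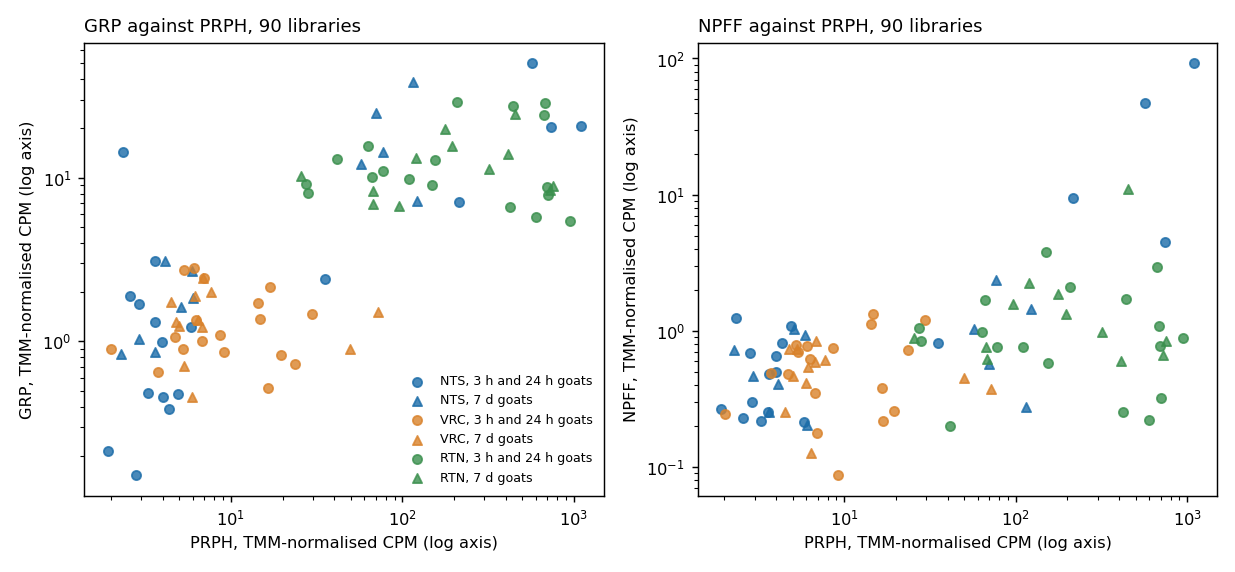
GRP and NPFF against PRPH, both in CPM on log axes, with 1 point per library for 90 libraries, colour for the site and shape for the batch. Libraries with more than 50 CPM of PRPH hold more than 5 CPM of GRP in the NTS and RTN, whereas the VRC library at 72.0 CPM of PRPH stays low for GRP, and NPFF passes 5 CPM in 4 libraries only.

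The first comparison outside the contrast that chose the members asked whether their levels differed between sites, in the second batch, over both 7 d exposures (12 libraries a site, 36 in the fit). The same 12 goats gave all 3 sites, which the fit does not model, since the labels do not tie libraries to goats. With the replicate number as a block, each of the 9 member values kept its direction and its side of 0.05. Between VRC and RTN all 3 genes differed, PRPH, GRP and NPFF all being lower in the VRC. PRPH averaged 15.1 ± 21.9 CPM in the VRC and 284 ± 254 CPM in the RTN (SD, n = 12 each), a log2 difference of -4.58 (SE 0.75; edgeR quasi-likelihood test, adjusted p = 6.30e-05). Of the 12 VRC libraries 10 lay below every RTN library for PRPH. GRP averaged 1.40 ± 0.56 CPM in the VRC and 12.3 ± 5.45 CPM in the RTN, a difference of -3.11 (SE 0.56, edgeR adjusted p = 1.93e-04), and the ranges did not overlap. NPFF averaged 0.512 ± 0.209 CPM in the VRC and 1.95 ± 2.89 CPM in the RTN, a difference of -1.78 (SE 0.48, edgeR adjusted p = 0.00951), with 8 of 12 VRC libraries below every RTN library. The difference of NPFF moved most with library 6 of the RTN in room air, at 10.96 CPM, without which it was -1.05 (edgeR adjusted p = 0.0295). For these 3 of 3 calls the background was 14.5% of 16050 genes.

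The VRC and RTN libraries of the first batch, also outside the contrast that chose the members, gave differences of the same sign, in a fit added after the data were seen. The log2 difference, VRC minus RTN, was -4.87 for PRPH, -3.34 for GRP and -0.90 for NPFF, each past 0.05 by edgeR (adjusted p = 1.04e-08, 6.20e-11 and 0.0365), where 25.5% of 16004 genes passed. Whether the batches differ in this was not tested. For GRP the 18 VRC libraries, at 0.521 to 2.80 CPM, all lay below the 18 RTN libraries, at 5.42 to 28.9 CPM. How many of all genes separate VRC and RTN libraries in this way, in either batch, was not counted.

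Between NTS and RTN, PRPH and NPFF were lower in the NTS and GRP did not pass the test. PRPH averaged 39.3 ± 46.7 CPM in the NTS and 284 ± 254 CPM in the RTN (SD, n = 12 each), a log2 difference of -2.94 (SE 0.68, edgeR adjusted p = 0.00148), and the 7 low NTS libraries lay below every RTN library. NPFF averaged 0.807 ± 0.617 CPM in the NTS and 1.95 ± 2.89 CPM in the RTN, a difference of -1.19 (SE 0.43, edgeR adjusted p = 0.0390). That call of NPFF ended in 13 of 24 fits that leave out a library, and without library 6 of the RTN in room air the difference was -0.46 (edgeR adjusted p = 0.262). GRP averaged 9.05 ± 11.8 CPM in the NTS and 12.3 ± 5.45 CPM in the RTN, a difference of -0.50 (SE 0.44, edgeR adjusted p = 0.432), with 7 NTS libraries below and 2 above every RTN library. Without library 4 of the NTS in room air, the highest for GRP, the difference was -1.07 and passed (edgeR adjusted p = 0.0456). The background for these 2 of 3 calls was 27% of 16050 genes.

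Between NTS and VRC, GRP was higher in the NTS, by a log2 difference of 2.61 (SE 0.57, edgeR adjusted p = 0.00103), with 9.05 ± 11.8 CPM in the NTS and 1.40 ± 0.56 CPM in the VRC (SD, n = 12 each). Of the NTS libraries 7 lay above every VRC library and 5 among them. PRPH, with 39.3 ± 46.7 CPM in the NTS and 15.1 ± 21.9 CPM in the VRC, differed by 1.64 (SE 0.71, edgeR adjusted p = 0.0911). Its medians lay the other way, at 5.99 CPM in the NTS and 6.27 CPM in the VRC. For PRPH, 3 NTS libraries lay above and 4 below every VRC library, and without library 5 of the VRC after CO2, at 72.0 CPM, the difference was 2.00 and passed (edgeR adjusted p = 0.0441). NPFF differed by 0.59 (SE 0.56, edgeR adjusted p = 0.486). This 1 call of 3 stands beside a background of 23.7% of 16050 genes.

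**Figure D5:**
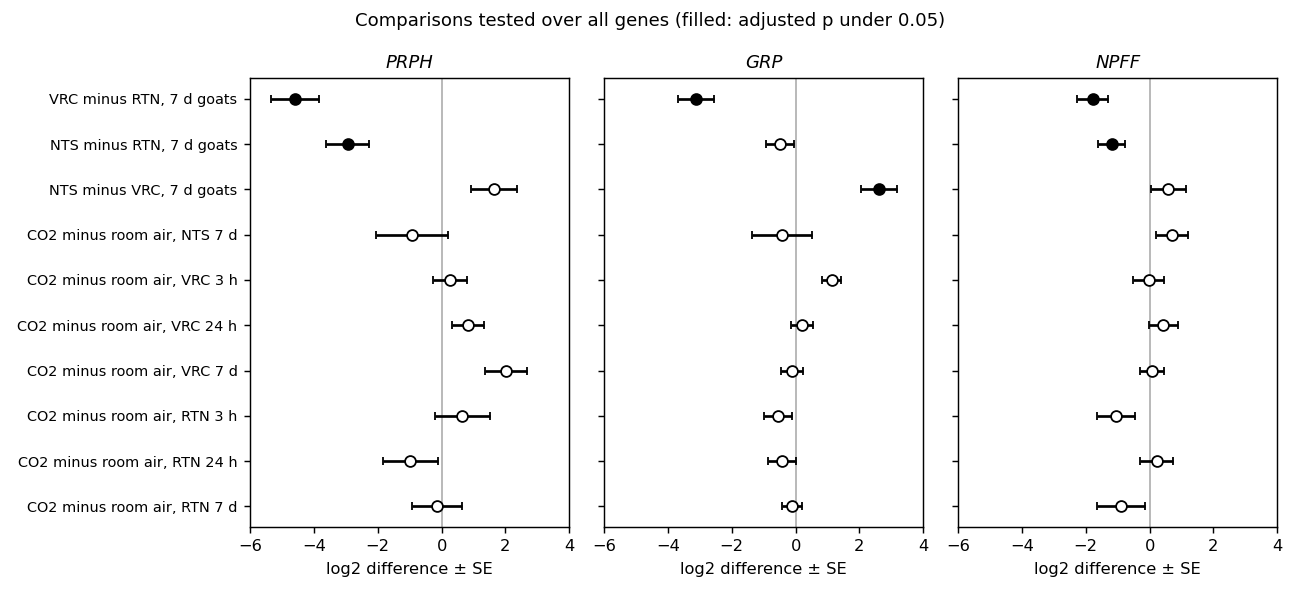
Log2 difference with its SE (bars) for PRPH, GRP and NPFF in the 3 comparisons between sites and the 7 comparisons of CO2 with room air that were tested, filled where the adjusted p of edgeR is under 0.05. The filled points are all differences between sites, and every CO2 comparison has open points.

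The second set of comparisons asked what CO2 did to the members outside the NTS of the first batch, in 7 comparisons, each with the room-air libraries of its own site and batch. None of the 21 values passed 0.05 by edgeR, 2 had an unadjusted p under 0.05, and DESeq2 and the likelihood ratio test over 90 libraries called 0 each. Over all genes, an edgeR unadjusted p under 0.05 was found for 1228 of 15311 in the NTS at 7 d. In the VRC it was found for 2006 and 1971 of 15424 at 3 h and 24 h, and 996 of 15179 at 7 d. In the RTN it was found for 1071 and 1001 of 15479 at 3 h and 24 h, and 499 of 15326 at 7 d. With the replicate number as a block, edgeR called GRP in the VRC at 3 h, with its value given among the alternatives. Each exposure group had its own goats, 30 in all, so this block joins libraries of different animals and is no paired test. DESeq2 gave no p for NPFF in the RTN at 7 d. In the NTS at 7 d, where 0.00653% of 15311 genes were called, the log2 difference, CO2 minus room air, was -0.93 for PRPH (SE 1.12), -0.43 for GRP (SE 0.95) and 0.69 for NPFF (SE 0.50), with adjusted p = 0.833, 0.911 and 0.730 by edgeR.

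In the VRC at 3 h, GRP came nearest to the threshold. It stood at 2.42, 1.71, 0.868, 2.74, 2.13 and 2.80 CPM after 3 h of CO2, against 1.09, 1.06, 0.831, 0.901, 0.651 and 1.01 CPM in room air. All libraries of the CO2 group but number 3 lay above every room-air library. The log2 difference was 1.13 (SE 0.29, edgeR unadjusted p = 7.49e-04, adjusted p = 0.119), and 0.013% of 15424 genes were called. Of these genes 2006 had an edgeR unadjusted p under 0.05. Without library 3 of the CO2 group the difference was 1.30 and passed (edgeR adjusted p = 0.0105), in a fit where 180 genes passed. PRPH differed by 0.26 and NPFF by -0.03 in the VRC at 3 h (SE 0.52 and 0.49). At 24 h, where 0.817% of 15424 genes were called, GRP averaged 1.06 ± 0.39 CPM after CO2 and 0.924 ± 0.166 CPM in room air (SD, n = 6 each), a difference of 0.20. The 3 h and 24 h comparisons share their room-air libraries. PRPH and NPFF differed by 0.83 and 0.44 at 24 h (SE 0.51 and 0.47).

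In the VRC at 7 d, PRPH stood at 7.68, 6.15, 5.32, 49.7, 72.0 and 4.99 CPM after CO2, against 4.77, 6.86, 4.48, 5.95, 6.78 and 6.40 CPM in room air. Libraries 4 and 5 of the CO2 group were far above the rest, and the other 4 lay close to the room-air range. The log2 difference was 2.03 (SE 0.66; edgeR unadjusted p = 0.00817, adjusted p = 0.747), and without library 5 it was 1.31. The NTS libraries of the same numbers held 76.9 and 2.28 CPM of PRPH and the RTN libraries 756 and 96.0 CPM, and the labels do not say whether equal numbers are the same goat. GRP and NPFF, at 0.705 to 2.01 CPM and 0.376 to 0.737 CPM after CO2, differed by -0.12 and 0.09 from room air, where they ran from 0.458 to 2.44 CPM and 0.127 to 0.842 CPM. Of 15179 genes tested in the VRC at 7 d, edgeR called 0 (0%), 996 had an unadjusted p under 0.05, and DESeq2 called 2.

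In the RTN the levels of PRPH were wide in every group. PRPH ran from 28.1 to 950 CPM after 3 h of CO2 (median 642 CPM) and from 27.4 to 423 CPM after 24 h (median 130 CPM), against 41.6 to 695 CPM in room air (median 253 CPM). After 7 d it ran from 67.0 to 756 CPM in CO2 (median 148 CPM), against 25.5 to 727 CPM in room air (median 257 CPM). The groups overlapped at each time, and the log2 differences, CO2 minus room air, were 0.65, -0.98 and -0.14 at 3 h, 24 h and 7 d (SE 0.86, 0.87 and 0.78; edgeR adjusted p = 0.911, 0.898 and 0.999). GRP differed by -0.56, -0.43 and -0.12 (SE 0.44, 0.45 and 0.32), with 5.42 to 28.7 CPM after 3 h, 6.59 to 28.9 CPM after 24 h and 8.76 to 27.4 CPM in room air. NPFF differed by -1.04, 0.22 and -0.89 (SE 0.59, 0.52 and 0.74), and the last value was 0.59 without library 6 of room air at 7 d. Of 15479 genes 0.0129% were called at 3 h and 0 (0%) at 24 h, with 1001 at an unadjusted p under 0.05 and 9 by DESeq2. At 7 d 0 of 15326 genes (0%) were called, with 499 at an unadjusted p under 0.05 and 2 by DESeq2.

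The spread between libraries of a group set PRPH apart from most genes at each site. Its SD of log2(CPM + 1) within groups was 2.74 in the NTS, 1.02 in the VRC and 1.67 in the RTN, against medians over 17730 genes of 0.257, 0.234 and 0.231. This ranked PRPH 3rd, 42nd and 10th from the top of all genes. The SD of GRP was 1.59 in the NTS (14th), 0.323 in the VRC and 0.661 in the RTN, where 97.9% of genes had less. That of NPFF was 1.47 in the NTS (24th), 0.287 in the VRC and 0.682 in the RTN. The NTS ranks use the libraries that chose the members and are a description.

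Likeness to other genes was measured by Pearson's r of log2(CPM + 1) over all 90 libraries, with every r a description, since the libraries share sites, goats and depth. Of 17729 other genes, 35 had an r above 0.8 with PRPH, 1 with GRP and 0 with NPFF. Nearest to PRPH were the unnamed ENSCHIG00000010324 (r = 0.961) and ENSCHIG00000023067 (r = 0.934). Among linked symbols TMEM176A, a membrane protein, followed (r = 0.886), then ALKAL2, a ligand of the receptor tyrosine kinase ALK (0.839), TMEM176B (0.837), S100A10, the partner of annexin A2 (0.810), and GNG3, a G protein gamma subunit (0.798). Over the 60 VRC and RTN libraries alone, r with PRPH was 0.857 for TMEM176A, 0.879 for ALKAL2, 0.767 for TMEM176B, 0.842 for S100A10 and 0.807 for GNG3. The VRC and RTN differ in their level of PRPH, so these values hold that difference too. With the mean of each group taken out, r over all 90 libraries was 0.807, 0.866, 0.787, 0.786 and 0.690 in the same order.

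For GRP the nearest linked genes were PRPH (r = 0.798), TM4SF4, a membrane protein of the L6 family (0.785), HOATZ, a gene of ciliated cells (0.784), ALKAL2 (0.777) and TMEM176A (0.723). Over the VRC and RTN these values were 0.796, 0.835, 0.833, 0.825 and 0.708. With group means taken out, over all 90 libraries, they were 0.639, 0.727, 0.675, 0.684 and 0.556. For NPFF the nearest linked genes were ALKAL2 (0.729), TM4SF4 (0.722), ABCB11, the bile salt export pump of the liver (0.722), HOATZ (0.623) and FKBP11, an isomerase of the endoplasmic reticulum (0.587). The likeness of NPFF and ABCB11 was 0.903 over the 30 NTS libraries and -0.021 over the VRC and RTN. NPFF had an r of 0.489 with PRPH and 0.516 with GRP over all 90 libraries, ranks 257 and 187 among the other genes.

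TM4SF4 ran from 14.8 to 384 CPM in the 5 NTS libraries that stood apart and from 0.0821 to 1.45 CPM in the other 13 of the first batch. ALKAL2 ran from 1.20 to 27.7 CPM and from 0 to 0.901 CPM in the same sets, and TMEM176B from 11.4 to 167 CPM and from 1.90 to 8.35 CPM. In the RTN, where PRPH and GRP were highest, the medians of TM4SF4, ALKAL2 and TMEM176B were 8.83, 2.52 and 22.5 CPM, against 0.885, 0.0867 and 10.0 CPM in the VRC. All linked symbols belong to genes that the authors selected on these libraries, so the named genes are not a fair draw of all genes. TM4SF4, ALKAL2 and TMEM176B were also named for their r with a member over libraries that include these sets. Their gaps between sets and between sites follow in part from that choice and are a description.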

How the data were processed

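Per the labels' protocols, cDNA was amplified by SMART-Seq v4, tagmented by Nextera XT and read in 100-bp pairs. The submitters' processing notes name featureCounts 2.0.6, STAR 2.7.10b, edgeR 4.6 and fastp 0.24.0. No genome build or strand setting is stated there. The authors deposited raw counts per Ensembl goat gene and gene tables of each CO2 contrast, in which mean abundance and fold change are on the log2 scale, whose likelihood ratio is a score and whose PValue and FDR columns are p-values, per the file headers. All 90 count columns were mapped to samples (0 left out). Symbols were linked by refitting all 90 libraries in 15 groups (minimum count 5, likelihood ratio fit, 17730 genes kept) and matching mean abundance within 1e-06. Of 342 entries 341 matched exactly 1 gene.

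Tests ran in edgeR 4.0.16 under R 4.3.3, with filterByExpr, TMM factors, glmQLFit (legacy=FALSE, robust=TRUE), the quasi-likelihood F test and Benjamini-Hochberg adjustment over all genes, threshold 0.05, in 10 tested comparisons, with the 18 or 12 libraries of a site and batch for CO2 and the 36 libraries of the second batch for sites. SE is the log2 difference divided by the root of F. The procedure was tested on simulated data with the same dispersion for every gene, a setting unlike the wide spread of the members in the NTS. CPM uses TMM factors over 90 libraries. The members, gene lists, naming rule and the set of libraries left out were chosen with earlier results of these data known. The naming rule takes the members, for each the 5 linked symbols of highest r over 90 libraries and at most 2 unnamed identifiers, and linked genes of the lists. The planned correlation over 12 libraries is not given because of separate sets. The planned test for members left out by the filter was not needed. Alternatives were RLE factors, no filter, DESeq2 1.42.0, the likelihood ratio fit, the replicate number as a block and leaving out each library; a first-batch fit and a permutation test (100000 resamples) were added after the data were seen. Labels do not say which goat a number stands for, so p-values treat libraries as separate samples, also between sites of the same goats. Ranges and SDs cover library spread; low counts add counting error.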

Additional observations from a re-analysis of the deposited data

Results flagged for a closer look

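In 4 of 45 groups of 6 libraries (3 genes by 15 groups) the highest library lay apart from the others on the log2(CPM + 1) scale by Dixon's test; chance gives about 1 in 20 groups. The NTS groups at 24 h entered the contrast that chose the members and the 3 h group shares its room-air libraries, so the count is a description and is not read against chance. PRPH in library 5 of the NTS after 24 h of CO2 was 35.3 CPM, with the next at 4.91 CPM. NPFF in library 6 of the NTS after 3 h of CO2 was 92.2 CPM, with the next at 4.53 CPM. Both of these belong to the 5 NTS libraries above 0 on the first principal component of the other genes. GRP in library 1 of the RTN after 24 h of CO2 was 28.9 CPM, with the next at 11.02 CPM. NPFF in library 6 of the RTN after 7 d of room air was 10.96 CPM, with the next at 1.32 CPM. The NTS groups in which a pair of libraries is high, such as PRPH after 3 h of CO2 and in 24 h of room air, cannot be found this way, since the gap then lies below the second library.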

How the results depend on the processing

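Over the tested comparisons, 587 of 630 member values under alternatives kept their direction and side of 0.05, 15 lost the call, 6 gained it and 22 changed sign, 20 of these on leaving out a library. The permutation test enters by its unadjusted p, so GRP, NTS minus RTN, counts as gained and NPFF as lost. The DESeq2 value of NPFF in the RTN at 7 d, which had no p, counts as kept by its direction alone. Without the 5 NTS libraries that stood apart, the 24 h values were -0.44 for PRPH, -1.23 for GRP and 0.17 for NPFF. The 5 hold the highest PRPH of the first-batch NTS, so these values are a description. DESeq2 called 71 genes in the NTS at 7 d, 121, 274 and 2 in the VRC at 3 h, 24 h and 7 d, and 17, 9 and 2 in the RTN, against 1, 2, 126, 0, 2, 0 and 0 by edgeR; PRPH, NTS minus VRC, passed at 1.64 (adjusted p = 0.0394). The likelihood ratio fit called 34 genes in the NTS at 7 d and 15 in the VRC at 3 h, and NPFF, NTS minus RTN, no longer passed at -1.23 (adjusted p = 0.111). With the replicate block the counts were 0 in the NTS at 7 d, 95 in the VRC at 3 h and 4168 between VRC and RTN, against 1, 2 and 2320. In the VRC at 3 h the block gave 1.17 for GRP (edgeR adjusted p = 0.0464) and 0.069 for NPFF, and 0.027 for PRPH in the RTN at 7 d, the last 2 with the sign turned. For CO2 comparisons the block joins libraries of different goats, so it is no paired test. Deviations of same-numbered libraries correlated over 0.1 in 33 of 36 pairs of sites and 30 of 54 pairs of exposures, and in 65 of 72 checks between sites a library correlated best with its own number, a hint from the data, not the design. The first batch called 4077 genes between VRC and RTN. The permutation test gave -1.11 for GRP (unadjusted p = 0.0299) and -0.47 for NPFF (unadjusted p = 0.0675), NTS minus RTN. The cause of these shifts was not tested.

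Leaving out 1 library gave -0.36 to 1.89 for GRP and -2.59 to 2.82 for NPFF in the NTS at 3 h, and -5.40 to -2.40 for PRPH, -4.01 to -1.49 for GRP and -4.45 to -2.12 for NPFF at 24 h. At 7 d it gave -1.60 to -0.45 for PRPH, -1.20 to 0.70 for GRP, 0.28 to 1.15 for NPFF and 0 to 3 called genes. In the VRC at 3 h it gave 0.046 to 0.70 for PRPH, 1.02 to 1.30 for GRP, -0.43 to 0.22 for NPFF and 2 to 180 genes, the most without CO2 library 3. At 24 h it gave 0.44 to 1.26 for PRPH, 0.078 to 0.35 for GRP, 0.13 to 0.67 for NPFF and 18 to 126 genes, the fewest without CO2 library 1, and at 7 d 1.31 to 2.25 for PRPH, -0.28 to 0.14 for GRP and -0.10 to 0.35 for NPFF. In the RTN it gave 0.40 to 1.02 for PRPH, -1.08 to -0.34 for GRP, -1.27 to -0.73 for NPFF and 0 to 2 genes at 3 h, -1.52 to -0.61 for PRPH, -0.88 to -0.21 for GRP and -0.51 to 0.54 for NPFF at 24 h, and -0.79 to 0.34 for PRPH, -0.33 to 0.17 for GRP and -1.13 to 0.59 for NPFF at 7 d. Between sites it gave 1.31 to 2.00 for PRPH (NTS minus VRC), and -1.07 to -0.36 for GRP and -1.42 to -0.46 for NPFF (NTS minus RTN). NPFF and GRP rest on as few as 2 reads in a library, which limits their low values.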
